A study of Mus musculus with 11 samples.

Results

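The transcripts of 10 amino acid transporters of the plasma membrane were followed in cultured mouse neural stem cells (NSCs). They were chosen by symbol, Slc7a1, Slc7a3, Slc7a5, Slc7a11, Slc3a2, Slc1a4, Slc1a5, Slc38a1, Slc38a2 and Slc6a9, among the 53801 genes of the deposited tables. The choice was made with earlier results of these data known. All 10 were found, and all 10 passed the filter on low counts in every comparison. The cells were primary NSCs of the mouse embryonic hippocampus, and 11 cultures were sequenced after 7 days with 1 µM 4HBP or with its vehicle EtOH. In proliferation medium (DMEM/F12 with glutaMAX and antibiotics, with EGF and bFGF at 20 ng/ml each, and with 1% B27) there were 3 libraries with 4HBP and 3 with EtOH. In differentiation medium (the same base and supplements with 2% B27 and without these growth factors) there were 3 libraries with 4HBP and 2 with EtOH. The sample labels spell 4HBP out as 4-Hydroxybenzoic acid and the study's text as 4-hydroxybenzophenone. The comparisons ask how the compound acts on NSCs kept dividing and on NSCs left to become neurons and glia.

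Amino acids enter cells through carriers that differ in what they carry and in what drives them. Slc3a2 encodes a heavy chain (4F2hc, CD98) that brings its light chains to the membrane. Among these, Slc7a5 (LAT1) exchanges large neutral amino acids such as leucine, and Slc7a11 (xCT) takes up cystine, which cells use to make glutathione, in exchange for glutamate. Slc7a1 (CAT1) and Slc7a3 (CAT3) carry arginine and lysine, and Slc1a4 (ASCT1) and Slc1a5 (ASCT2) exchange small neutral amino acids such as serine. Slc38a1 (SNAT1) and Slc38a2 (SNAT2) take up neutral amino acids with sodium, and Slc6a9 (GlyT1) takes up glycine. Several of these genes belong to the amino acid response, in which the factor ATF4 raises transporters and enzymes of amino acid synthesis, and leucine brought in by LAT1 is 1 of the signals that activate the growth kinase complex mTORC1.

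The letters that ATF4 and its C/EBP partners are known to bind, TGATGNAA on either strand (TTNCATCA on the other), were looked for in RefSeq promoter windows on GRCm38.p6 that run from 250 bases before to 50 bases after each start. Windows were at hand for 6 of the 10 transporters (9 windows). Of all 32851 windows, 3.97% held at least 1 such word and 23 windows held 2 or more. Slc7a11 was among these 23, with words that begin 66 and 47 bases before the start, and Slc1a4 held 1 word that begins 4 bases before the start. The stretches with these words are printed 5′ to 3′ on the gene's strand, with the words in capitals.
Slc7a11, chr3:50443634-50443753, minus strand: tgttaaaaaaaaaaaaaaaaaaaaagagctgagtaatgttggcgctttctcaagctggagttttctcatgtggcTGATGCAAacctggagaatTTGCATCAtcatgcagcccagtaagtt
Slc1a4, chr11:20332710-20332829, minus strand: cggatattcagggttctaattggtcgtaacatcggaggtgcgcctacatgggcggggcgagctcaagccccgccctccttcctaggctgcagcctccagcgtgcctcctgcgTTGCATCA
Windows of Slc7a1, Slc3a2, Slc38a2 and Slc6a9 did not hold the word, which says only that these letters are not in these windows. A word is a description of the sequence and not a site of binding.

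Each library held 20822921 to 23438463 expected counts in all, and 3 of these, taken as the least that could be told from 0, stood for 0.128 to 0.144 CPM (counts scaled to a common library size). Levels are given below as CPM normalized by TMM over the 11 libraries, and, where genes are compared with each other, as TPM, which accounts for transcript length. Marker genes of neural stem and dividing cells summed to 3890 to 4930 normalized CPM in proliferation medium and 1170 to 1260 in differentiation medium, and those of neurons to 905 to 1060 in all 11 libraries. The most abundant neuronal marker was Map2 (mean 357 TPM over the 11 libraries), so the sum mostly follows this gene. In EtOH cultures 3 of the 6 neuronal markers (Dcx, Rbfox3 and Snap25) were called higher in differentiation medium and 1 (Map2, log2 fold change −0.33) lower. Markers of the oligodendrocyte lineage summed to 1930 to 3770 normalized CPM in proliferation and 7270 to 7600 in differentiation medium, so the cultures held glial transcripts in both. Microglial markers summed to at most 3.66 normalized CPM and endothelial markers to at most 2.65, with 2 of the 5 endothelial genes at 0 in every library. Markers of meninges and mural cells summed to 2.25 to 3.7 normalized CPM in proliferation medium and to 27.3 to 31.1 in differentiation medium. These markers did not move together in EtOH cultures. Pdgfrb (mean 4.28 TPM over the 11 libraries) was higher in differentiation medium by a log2 fold change of 5.29, and Rgs5 (0.542 TPM) was lower (−1.66). Col1a1 (0.0882 TPM) was higher (1.82), and Dcn and Lum (0.0618 and 0.0182 TPM) had too few reads to be tested. In proliferation medium the library of 4HBP replicate 3 stood apart from the other 2 with 4HBP, with a mean chi-square per gene of 25.7 and 23.1 against them, where those 2 differed by 5.63. In bulk RNA, fewer cells of a type and less RNA per cell cannot be told apart. The labels do not say whether replicates came from separate animals or cultures, so p-values measure the spread between these libraries, which may be technical.

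In EtOH cultures in proliferation medium, Slc3a2 had the highest mean of the 10 (181 TPM). Slc7a5 (108 TPM) and Slc1a4 (104 TPM) came next, and their libraries overlapped. Slc38a2 (39.4 TPM), Slc38a1 (36.6 TPM), Slc6a9 (33.5 TPM) and Slc7a1 (26.4 TPM) followed, each overlapping its neighbour in this order. Below these stood Slc7a11 (6.97 TPM), Slc1a5 (3.59 TPM) and Slc7a3 (1.58 TPM), with no overlap between neighbours. With 4HBP in the same medium, Slc3a2 (413 TPM) and Slc7a5 (241 TPM) again led, and Slc7a3 (19.2 TPM) moved from the last place to the 9th, where its libraries overlapped those of Slc7a11 (19.6 TPM) and of Slc1a5 (10.6 TPM). In differentiation medium Slc6a9 took the 3rd place with EtOH (72.6 TPM) and with 4HBP (83.9 TPM), and Slc7a3 was last in both (1.09 and 0.897 TPM).

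**Figure D1:**
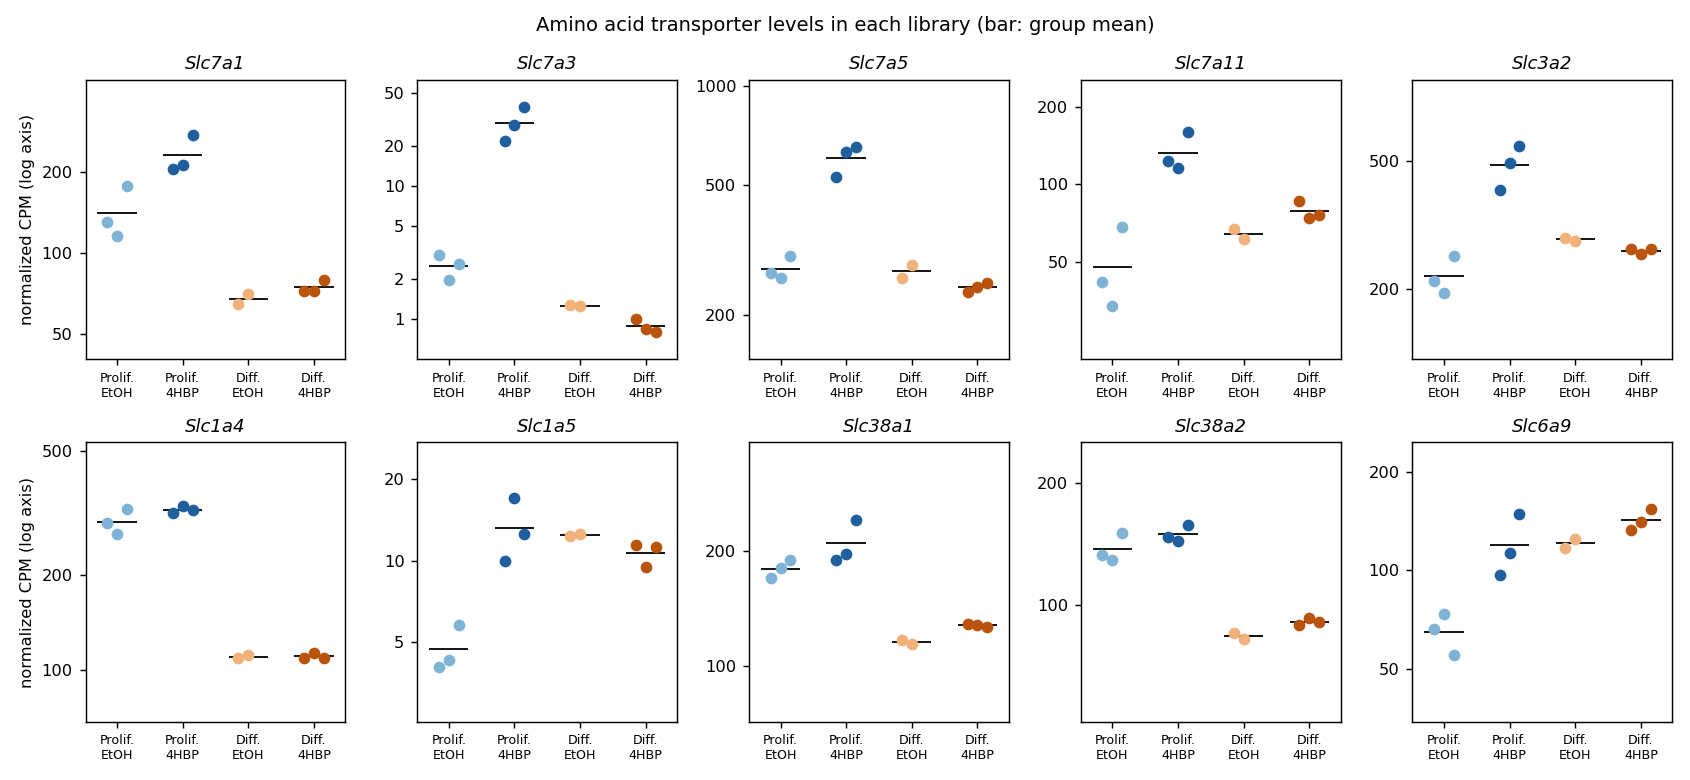
Normalized CPM of each transporter in each of the 11 libraries, on log axes that differ between panels, with points for libraries and bars for group means. The 3 libraries with 4HBP in proliferation medium lie above the 3 EtOH libraries for 8 of the 10 genes, and the groups overlap for Slc1a4 and Slc38a2.

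In proliferation medium 7 of the 10 transporters rose with 4HBP (edgeR quasi-likelihood test, Benjamini-Hochberg adjusted p under 0.05 over 14449 genes), and none of the 10 fell. Among all genes tested, 3.74% were called higher and 3.69% lower. The median log2 fold change of the 10 was 1.00, against 0.00138 for all genes. All libraries with 4HBP lay above all EtOH libraries for 8 of the 10, a pattern that 16.2% of all genes showed upwards and 15.1% downwards. Among the 10, those that rose were the heavy chain, the light chains Slc7a5 and Slc7a11, the cationic carriers Slc7a1 and Slc7a3, Slc1a5 and Slc6a9. Outside the 10, the cationic carrier Slc7a2 (log2 fold change 0.11, adjusted p = 0.48) was not called. The light chains Slc7a6 (0.20, adjusted p = 0.21) and Slc7a8 (0.38, adjusted p = 0.37) were not called either. Slc1a4, Slc38a1 and Slc38a2 did not pass the test.

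The heavy chain Slc3a2 (chr19:8706882-8723369) stood at 404, 490 and 555 normalized CPM in the 3 libraries with 4HBP and at 212, 195 and 254 in the 3 EtOH libraries. Every library with 4HBP was above every EtOH library, and the log2 fold change was 1.13 (SE 0.133, 2.19-fold, adjusted p = 0.00422). Its partner Slc7a5 (chr8:121881150-121907694), the leucine exchanger, stood at 527, 630 and 655 normalized CPM with 4HBP and at 269, 260 and 303 with EtOH. The groups lay apart, and the log2 fold change was 1.12 (SE 0.103, 2.18-fold, adjusted p = 0.00201), the 10th lowest p of all genes tested. Slc7a5 overlaps Gm20388, a gene on the other strand that was given between 9.61 and 1210 expected counts. The study's methods name a stranded library kit, but whether reads were counted by strand is not given in the sources used here.

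Slc7a11 (chr3:49892526-50443614), the cystine carrier, stood at 123, 116 and 159 normalized CPM with 4HBP and at 41.8, 33.6 and 68.2 with EtOH. The EtOH libraries spread widely among themselves and still lay below all 3 libraries with 4HBP. Its log2 fold change was 1.47 (SE 0.232, 2.77-fold, adjusted p = 0.0104). The heavy chain Slc3a2 and the light chain Slc7a5 moved by close amounts in proliferation medium, which did not hold for every light chain. The ratio of Slc3a2 to Slc7a5 in TPM was 1.60 to 1.76 with EtOH and 1.62 to 1.81 with 4HBP. Slc7a5 made up 77.4 to 79.7% of the summed TPM of the light chains with EtOH and 82.4 to 84.2% with 4HBP, where that sum also holds Slc7a11 and the light chains Slc7a6, Slc7a7, Slc7a8 and Slc7a10.

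**Figure D2:**
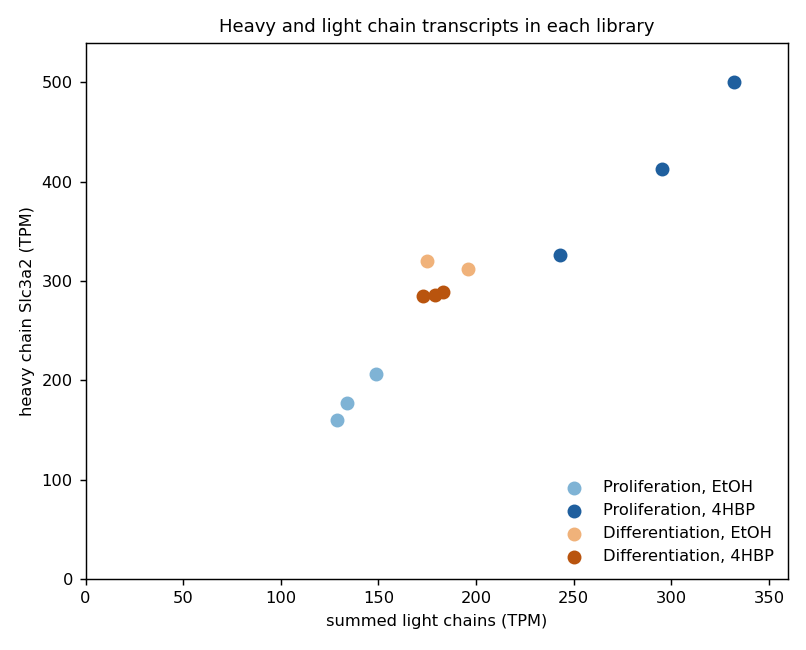
TPM of the heavy chain Slc3a2 against the summed TPM of its light chains in each library, with points coloured by group. The EtOH libraries of proliferation medium lie at 129 to 149 TPM of light chains and the libraries with 4HBP at 243 to 332, with the 5 libraries of differentiation medium between them at 173 to 196.

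The largest log2 fold change of the 10 was that of Slc7a3 (chrX:101079210-101086020), the less abundant cationic carrier among them. It stood at 21.6, 28.7 and 39.0 normalized CPM with 4HBP and at 3.03, 1.97 and 2.58 with EtOH, from 441, 594 and 832 expected counts against 62, 40 and 52. The log2 fold change was 3.56 (SE 0.247, 11.8-fold, adjusted p = 8.82e-04), with the lowest p of the 14449 genes. Slc7a1 (chr5:148327410-148399904), the more abundant of these 2 cationic carriers, stood at 205, 212 and 275 normalized CPM with 4HBP and at 130, 115 and 177 with EtOH. All 3 libraries with 4HBP were above the EtOH libraries, and the log2 fold change was 0.72 (SE 0.164, 1.64-fold, adjusted p = 0.0338). The ratio of Slc7a1 to Slc7a3 in TPM was 11.7 to 23.0 with EtOH and 2.09 to 2.83 with 4HBP, without overlap.

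The exchangers of small neutral amino acids differed from each other. Slc1a5 (chr7:16781340-16798274) stood at 9.99, 17.1 and 12.5 normalized CPM with 4HBP and at 4.05, 4.29 and 5.75 with EtOH, a log2 fold change of 1.49 (SE 0.221, 2.81-fold, adjusted p = 0.00881). Slc1a4 (chr11:20302180-20332713) stood at 317, 333 and 324 normalized CPM with 4HBP and at 294, 271 and 327 with EtOH. These groups overlapped, and the log2 fold change of 0.13 (95% interval −0.06 to 0.32) did not pass the test (adjusted p = 0.383). The ratio of Slc1a4 to Slc1a5 in TPM accordingly went from 26.4 to 31.6 with EtOH to 8.54 to 17.5 with 4HBP.

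The sodium-coupled carriers differed little between the groups. Slc38a1 (chr15:96571418-96642913) stood at 190, 197 and 241 normalized CPM with 4HBP and at 170, 180 and 189 with EtOH, with a log2 fold change of 0.22 (95% interval −0.003 to 0.44, adjusted p = 0.206). Slc38a2 (chr15:96687392-96699730), its neighbour on chromosome 15, stood at 147, 144 and 158 normalized CPM with 4HBP and at 133, 129 and 151 with EtOH. The Slc38a2 groups overlapped, and its log2 fold change was 0.12 (95% interval −0.06 to 0.30, adjusted p = 0.407). Slc6a9 (chr4:117834506-117875198), the glycine carrier, stood at 96.7, 113 and 149 normalized CPM with 4HBP and at 66.0, 73.4 and 55.0 with EtOH, a log2 fold change of 0.88 (SE 0.158, 1.85-fold, adjusted p = 0.0153). Ccdc24 and B4galt2 overlap Slc6a9 on the other strand, and were given at most 53.4 and 974 expected counts.

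Together the 10 genes summed to 496 to 593 TPM with EtOH and 838 to 1210 TPM with 4HBP. Without 4HBP replicate 3, the library that stood apart, the same 7 were called, with log2 fold changes from 0.57 (Slc7a1) to 3.32 (Slc7a3). Slc7a3, Slc7a5 and Slc3a2 were called whichever of the 6 libraries was left out. Without EtOH replicate 1 only these 3 were called (adjusted p of Slc7a11 0.0675, of Slc1a5 0.06 and of Slc6a9 0.0779), and without EtOH replicate 2 these 3 and Slc7a11. Slc7a1 was also lost without 4HBP replicate 2 (adjusted p = 0.0668). With limma on log2(CPM+1), the study's kind of test, none of the 10 passed an adjusted p of 0.05 (0.0545 for Slc7a3 and up to 0.242 for the other 6) and 67 genes passed in all, while the study's own thresholds (unadjusted p under 0.05 and log2 fold change over 0.58) called the 7. Astrocyte markers moved with the treatment in this medium: they summed to 2960 to 3420 normalized CPM with 4HBP and 4340 to 5300 with EtOH, and 3 of the 5 (Gfap, Aqp4 and Aldoc) were called lower. Oligodendrocyte markers summed to 1930 to 3310 with 4HBP and 3160 to 3770 with EtOH, with none of the 6 called. Of the 7 markers of neural stem and dividing cells none was called. Of these, 3 were lower with 4HBP at an unadjusted p under 0.05 (Hes5, Top2a and Mki67) and 0 were higher. The part of these cell type markers in the transporter changes was not tested.

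**Figure D3:**
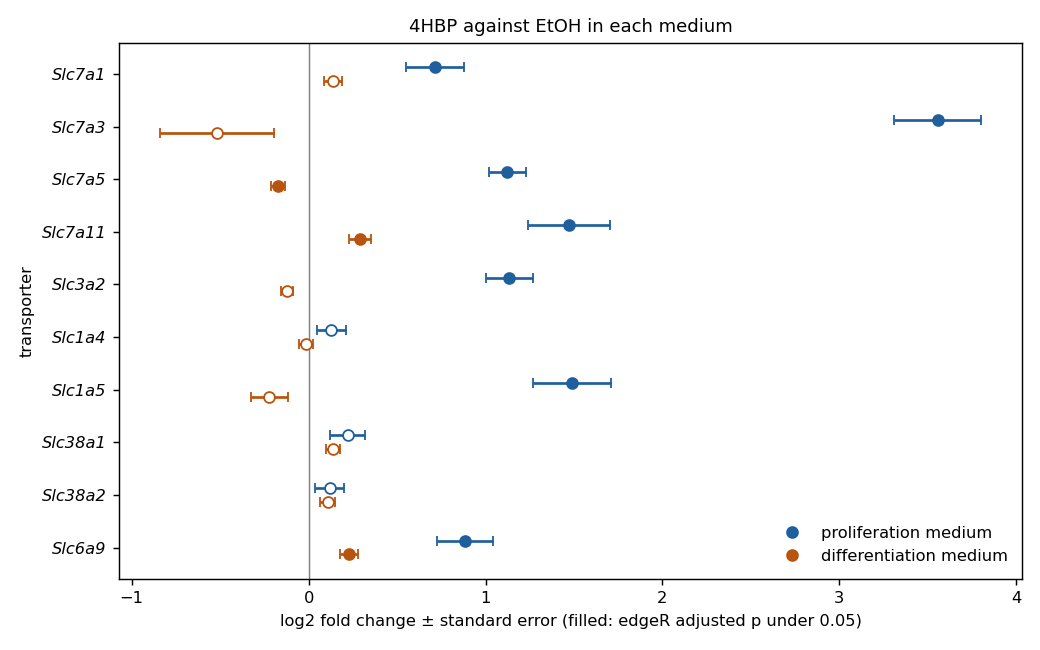
Log2 fold change of 4HBP against EtOH for each transporter in each medium, with bars for the standard error and filled points where the adjusted p is under 0.05. In proliferation medium 7 points are filled and reach from 0.72 for Slc7a1 to 3.56 for Slc7a3, and in differentiation medium 3 are filled, between −0.17 and 0.29.

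Genes around the transporters were read from lists that, like the transporters, were chosen with earlier results of these data known. Of 35 other amino acid transporters of the plasma membrane, 16 passed the filter on low counts in proliferation medium, and none of these was called higher (1 at an unadjusted p under 0.05). The shares called over all genes were 3.74% higher and 3.69% lower. The GABA carrier Slc6a11 fell (log2 fold change −0.67, SE 0.166, adjusted p = 0.0425), a call that was lost without EtOH replicate 1, without EtOH replicate 2, without 4HBP replicate 2, with library totals in place of TMM, with limma on log2(CPM+1) or with a block for the replicate number. Among the others of low p, the neutral amino acid carrier Slc6a15 (0.86, adjusted p = 0.0876) and the glutamate carrier Slc1a2 (−0.32, adjusted p = 0.106) were not called. The most abundant of the list, the glutamate carrier Slc1a3 (mean 1040 TPM over the 11 libraries) and the glutamine carrier Slc38a3 (369 TPM), had log2 fold changes of −0.05 and −0.06 and were not called either. The median log2 fold change of the 16 was −0.01.

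Of 17 genes of the amino acid response, 5 rose with 4HBP in proliferation medium and none was called lower (1 at an unadjusted p under 0.05). Over all genes tested, 3.74% were called higher and 3.69% lower. The median log2 fold change of the 17 was 0.39. Nupr1, a stress-induced nuclear protein, rose by 2.58 (SE 0.247, adjusted p = 0.00230). Asns, which makes asparagine, rose by 1.37 (SE 0.134, adjusted p = 0.00237), and Trib3, a pseudokinase that restrains ATF4, by 1.79 (SE 0.38, adjusted p = 0.0270). Atf4 itself, the most abundant of the list (276 TPM), rose by 0.60 (SE 0.147, adjusted p = 0.0414). Sesn2, a leucine sensor that is on this list and on the next, rose by 0.58 (SE 0.152) with an adjusted p of 0.04997, just under the threshold. The count of 5 became 2 without EtOH replicate 1, without EtOH replicate 2 or without 4HBP replicate 2, and 9 without EtOH replicate 3, and none was called with limma on log2(CPM+1) and an adjusted p. The response is set off by lack of amino acids and by other stresses, through the kinases Eif2ak1, Eif2ak2, Eif2ak3 and Eif2ak4. The transcripts of these kinases had log2 fold changes between −0.09 and −0.01 and were not called. Transcript levels do not show whether the kinases were active, which was not tested here.

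Of 25 genes of amino acid sensing by mTORC1, 24 passed the filter. At an unadjusted p under 0.05, 10 were higher with 4HBP and 5 lower. Against 3.74% of all genes called higher and 3.69% lower, 3 of the 24 rose and none was called lower. These were the GTPases Rragc (log2 fold change 0.35, adjusted p = 0.0227) and Rragb (0.40, adjusted p = 0.0275), which tether mTORC1 to the lysosome, and Sesn2. Sesn1 was at −0.39 with an adjusted p of 0.0576 and was not called, nor were the most abundant of the list, Lamtor1 (151 TPM, −0.03) and Lamtor2 (93.9 TPM, −0.02). None of the 24 was called without EtOH replicate 1, without EtOH replicate 2 or without 4HBP replicate 2, and 1 without 4HBP replicate 1. Limma on log2(CPM+1) called none, the block for the replicate number and the study's thresholds called 1 each, DESeq2 called 4 higher and 2 lower, and all 11 libraries in 1 fit called 8 higher and 3 lower.

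In differentiation medium the 4HBP effects on the transporters were small. With 4HBP 2 of the 10 rose and 1 fell, against 1.26% of 15484 genes called higher and 1.29% called lower. Slc7a11 stood at 86.2, 74.1 and 76.1 normalized CPM with 4HBP and at 67.0 and 61.3 with EtOH, a log2 fold change of 0.29 (SE 0.0613, 1.22-fold, adjusted p = 0.02). Slc6a9 stood at 133, 141 and 154 normalized CPM with 4HBP and at 117 and 125 with EtOH (0.23, SE 0.0527, 1.17-fold, adjusted p = 0.0321). Slc7a5 stood at 235, 244 and 250 normalized CPM with 4HBP and at 260 and 285 with EtOH (−0.17, SE 0.0408, adjusted p = 0.0344), the opposite direction to its change in proliferation medium.

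The other 7 did not pass the test in differentiation medium. Slc3a2 stood at 266, 258 and 267 normalized CPM with 4HBP and at 289 and 282 with EtOH (log2 fold change −0.12, 95% interval −0.20 to −0.05, adjusted p = 0.0659). Slc7a3 had few reads, with 23, 20 and 17 expected counts with 4HBP and 29 and 30 with EtOH, and its interval was wide (log2 fold change −0.52, 95% interval −1.20 to 0.16). Slc1a4 stood between 109 and 113 normalized CPM in all 5 libraries. Libraries with 4HBP all lay above the EtOH libraries for 5 of the 10 and below them for 4, where 17.4% of all genes did so upwards and 15.5% downwards. The spread between libraries was smaller here than in proliferation medium (biological coefficient of variation 0.0368 against 0.117), and the calls rest on few libraries. None of the 3 calls held whichever library was left out: both rises were lost without EtOH replicate 1 and without EtOH replicate 2 (adjusted p 0.0647 and 0.205 for Slc7a11, 0.351 and 0.0907 for Slc6a9), and Slc6a9 also without 4HBP replicate 2 or 3. Slc7a5 was lost without EtOH replicate 2 (adjusted p = 0.324) and without 4HBP replicate 1 or 2. With limma on log2(CPM+1), with voom, or with all 11 libraries in 1 fit, none of the 10 was called. Of 17 amino acid response genes none was called here by edgeR (3 at an unadjusted p under 0.05), and Asns had a log2 fold change of 0.06. Of 25 mTORC1 sensing genes none was called either (7 at an unadjusted p under 0.05). Of 20 other transporters tested, Slc38a3 (0.28, adjusted p = 4.79e-04) and Slc6a11 (0.22, adjusted p = 0.0161) rose. Of these 20, 1 was called with DESeq2, without 4HBP replicate 2 or without EtOH replicate 1, and none with limma, with voom or with all 11 libraries in 1 fit.

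The effect of 4HBP was larger in proliferation than in differentiation medium for 5 of the 10 by the test of the difference itself (edgeR interaction over all 11 libraries), against 2.01% of 15920 genes called larger and 2.48% called smaller. These were Slc7a3 (difference in log2 fold change 4.07, SE 0.438, adjusted p = 7.45e-04), Slc7a5 (1.29, SE 0.124, adjusted p = 4.37e-04), Slc3a2 (1.25, SE 0.161, adjusted p = 0.00202), Slc1a5 (1.70, SE 0.274, adjusted p = 0.00633) and Slc7a11 (1.17, SE 0.295, adjusted p = 0.0427). Slc7a11 was called in only 4 of the 11 fits that leave out a library (adjusted p up to 0.181, without differentiation EtOH replicate 1), and was not called with DESeq2 (0.0502) or limma on log2(CPM+1) (0.14). The other 4 genes were called in all 11. Without proliferation 4HBP replicate 3 the same 5 were called, with differences from 1.03 (Slc7a11) to 3.83 (Slc7a3). For Slc38a2 the difference was 0.00 (95% interval −0.21 to 0.22), for Slc38a1 0.07 (−0.18 to 0.33) and for Slc1a4 0.13 (−0.08 to 0.34). Slc7a1 (0.57, adjusted p = 0.159) and Slc6a9 (0.65, adjusted p = 0.0953) did not pass the test.

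Between the media, the transporters went in different directions in EtOH cultures, the same EtOH libraries as in the treatment comparisons. In differentiation medium 5 of the 10 were lower and 3 higher than in proliferation medium, where 30.8% of 15920 genes were called higher and 30.6% lower. Slc1a4 was the most reduced, at 109 and 111 normalized CPM in differentiation against 271 to 327 in proliferation medium (log2 fold change −1.43, SE 0.0754, adjusted p = 7.71e-09). Slc7a1 fell by 1.06 (SE 0.164, adjusted p = 9.42e-05), Slc38a2 by 0.72 (SE 0.0749, adjusted p = 3.12e-06) and Slc38a1 by 0.64 (SE 0.0907, adjusted p = 4.83e-05). Slc7a3 fell by 1.00 (SE 0.317, adjusted p = 0.0151), from 1.97 to 3.03 normalized CPM to 1.25 and 1.28, a call that was lost without proliferation EtOH replicate 1 or either differentiation EtOH replicate, with voom (adjusted p = 0.0735) and with limma on log2(CPM+1) (−0.57, adjusted p = 0.085).

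Slc1a5, Slc6a9 and Slc3a2 were higher in differentiation medium. Slc1a5 stood at 12.3 and 12.5 normalized CPM against 4.05 to 5.75 in proliferation medium (log2 fold change 1.40, SE 0.208, adjusted p = 7.22e-05), so that Slc1a4 and Slc1a5, close relatives, moved in opposite directions. Slc6a9 stood at 117 and 125 normalized CPM against 55.0 to 73.4 (0.90, SE 0.15, adjusted p = 1.87e-04), and Slc3a2 at 282 and 289 against 195 to 254 (0.38, SE 0.12, adjusted p = 0.0154). The Slc3a2 call was lost without proliferation EtOH replicate 2 (adjusted p = 0.0592) or differentiation EtOH replicate 1 (0.0705). Slc7a5 was not called (−0.03, 95% interval −0.23 to 0.18), nor was Slc7a11 (0.42, 95% interval −0.06 to 0.90), which passed without proliferation EtOH replicate 3 (0.77, adjusted p = 0.00104), without the filter on low counts (0.40, adjusted p = 2.71e-05), with voom (0.49, adjusted p = 0.0283) and with a block for the replicate number (0.60, adjusted p = 0.0118). The ratio of Slc3a2 to Slc7a5 in TPM was 2.10 to 2.39 in differentiation medium, above the 1.60 to 1.81 of proliferation medium. Among the other transporters 12 of 21 were higher and 2 lower in differentiation medium, with Slc38a3 (1.83), Slc1a2 (1.80) and Slc6a15 (2.05) among the higher and Slc1a3 (−0.14, adjusted p = 0.04982) among the lower. None of the 21 was called lower with library totals, with limma on log2(CPM+1), without proliferation EtOH replicate 1 or without either differentiation EtOH replicate. Of the amino acid response genes 11 of 17 were lower, Asns by a log2 fold change of −1.34, and 1 was higher. Of the mTORC1 sensing genes 13 of 25 were higher and 4 lower. Cell types, proliferation and growth factors differ between the media together, and cannot be told apart here.

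Under 4HBP, 8 of the 10 were lower in differentiation medium and none was higher, where 33.3% of all genes were called higher and 33.8% lower. This comparison uses the same 4HBP libraries as the treatment comparisons. Slc7a3 was at 0.806 to 1.00 normalized CPM in differentiation and at 21.6 to 39.0 in proliferation medium (log2 fold change −5.06, SE 0.248, adjusted p = 2.25e-09). Slc7a1 had a log2 fold change of −1.63 (SE 0.144), Slc1a4 of −1.56 (SE 0.0657), Slc7a5 of −1.31 (SE 0.0845), Slc3a2 of −0.87 (SE 0.108) and Slc7a11 of −0.75 (SE 0.195). Slc38a2 and Slc38a1 were at −0.72 and −0.71, close to their values in EtOH cultures. Slc1a5 (−0.31, 95% interval −0.69 to 0.08) and Slc6a9 (0.25, 95% interval −0.04 to 0.55) were not called. Without proliferation 4HBP replicate 3 the same 8 were lower, and Slc6a9 was called higher (0.43, adjusted p = 0.00197).

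**Figure D4:**
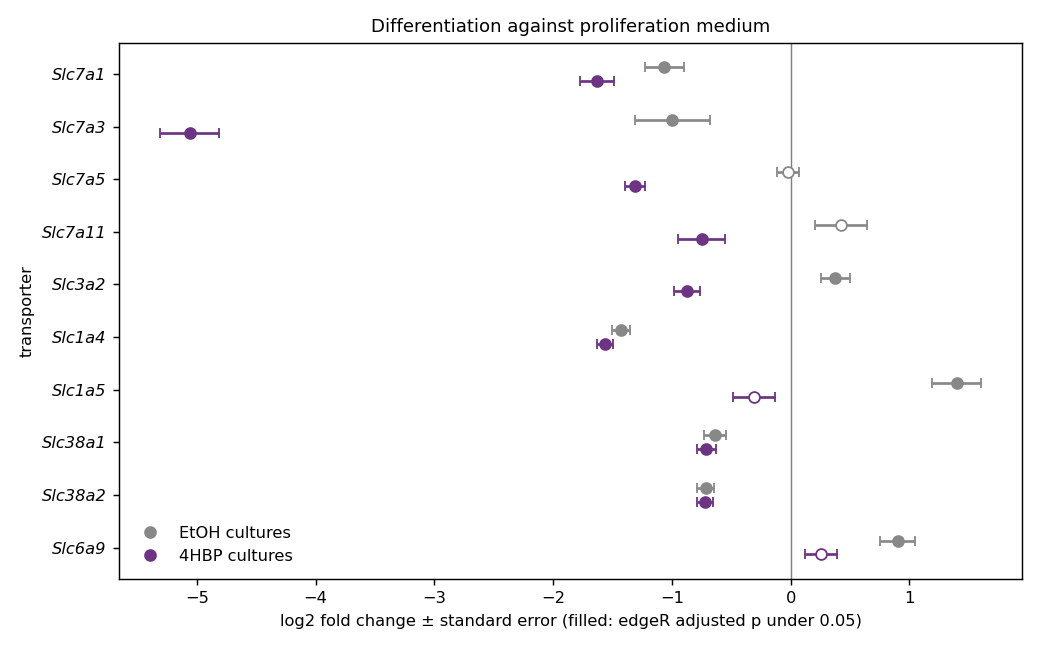
Log2 fold change of differentiation against proliferation medium for each transporter in EtOH cultures and in 4HBP cultures, with bars for the standard error and filled points where the adjusted p is under 0.05. Slc1a4, Slc38a1 and Slc38a2 have like values in both cultures, while Slc7a3 lies lower with 4HBP (−5.06) than with EtOH.

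The tables also give, for each gene and library, RSEM's mean transcript length weighted by the estimated abundance of its transcripts. For Slc7a11 this length was 8924 to 9199 bases in the 6 libraries of proliferation medium and 8923 and 9057 bases in the EtOH libraries of differentiation medium. In the 3 libraries with 4HBP in differentiation medium it was 5810, 6855 and 6809 bases. The ratio of the group means was 0.722, and of 7032 genes with at least 500 expected counts in each of these 5 libraries no other had a ratio as low. In TPM, which divides by this length, Slc7a11 was at 26.4, 19.1 and 19.5 with 4HBP and at no more than 13.4 in either EtOH library, a wider gap than in normalized CPM. The annotated transcripts of Slc7a11 run from 481 to 9223 bases, and the deposited gene tables do not say which of them took the reads. With 3 libraries against 2 this is given without a test, and it was chosen after the values were seen. Among the other 7 transporters with enough counts, the ratio in differentiation medium lay between 0.997 and 1.04.

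**Figure D5:**
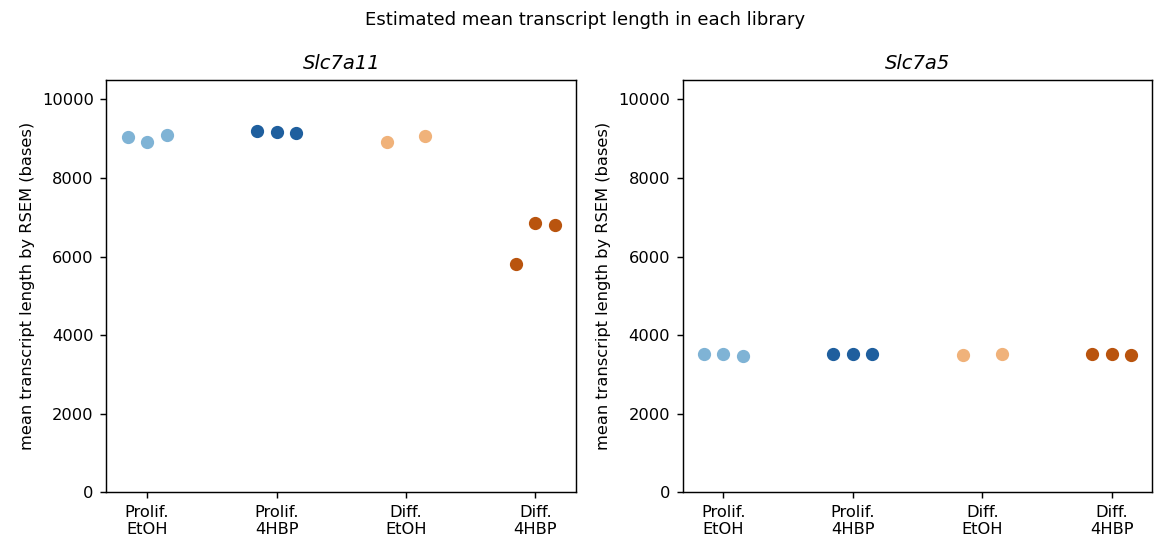
RSEM's mean transcript length in bases in each library for Slc7a11 and, for comparison, Slc7a5. The 3 libraries with 4HBP in differentiation medium lie at 5810 to 6855 bases for Slc7a11, below the other 8 libraries, and Slc7a5 lies between 3473 and 3517 bases in all 11.

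Across the 11 libraries, the transporters fell into profiles that are described here by Pearson's r of log2 normalized CPM. The libraries share 4 groups, so that these values mostly reflect group differences. Among the 10, Slc1a4 was most like Slc38a2 (r = 0.984) and Slc38a1 most like Slc38a2 (0.976), Slc7a3 was most like Slc7a5 (0.976), and Slc3a2 was most like Slc7a11 (0.921). Genes outside the 10 were often closer. By r over all genes tested, these partners ranked 381 for Slc1a4, 30 for Slc38a1, 17 for Slc7a3 and 52 for Slc3a2. Slc1a5 and Slc6a9 were nearest each other within the 10 (r = 0.802, Spearman's rho 0.509), though only at rank 220 for Slc1a5 and 508 for Slc6a9 over all genes tested. Both had values near 0 or below with Slc7a1 (−0.04 and −0.31) and Slc1a4 (−0.35 and −0.60). Outside the 10, the genes most like Slc7a5 were Noc3l (r = 0.989), Pmm2 (0.986) and Itpripl2 (0.985), those most like Slc7a11 were Hmox1 (0.978), Ccl2 (0.976) and Cldn12 (0.962), and those most like Slc3a2 were Mdfic (0.989), P2rx3 (0.984) and Cyb5r1 (0.982).

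The 10 transcripts are mostly free of sequence shared with genes outside the 10. Words shared among the 10 themselves, which include close relatives, were not counted. None of the 40-base words of Slc7a3, Slc7a5, Slc1a4, Slc1a5 and Slc38a2 occurred in the transcripts of a gene outside the 10. The share was at most 5.21%, in Slc38a1, of whose 887 shared words 779 occurred in 4632432E15Rik. For Slc3a2 it was 3.74%.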

How the data were processed

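The 11 RNA-seq libraries were placed in their groups by the sample titles. Per the submitters' processing notes and the study's methods, reads were trimmed with cutadapt after FastQC 0.11.5 and quantified by the authors with RSEM 1.3.0 and Bowtie2 2.2.9 on mm10 (GRCm38). Per the file headers, each deposited table gives for every gene an expected count, TPM, FPKM and a mean transcript length. The deposited expected counts are fragments assigned by RSEM without normalization, and need not be whole (18.6% of values above 0 were not, at a tolerance of 0.001). The deposited TPM values were normalized by the authors with RSEM for length and depth, and the deposited length is in bases. FPKM was not used. Symbols, positions and transcripts come from GENCODE vM21, a later release than the authors used, matched by gene identifier (99.7% of 53801).

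Expected counts were rounded, filtered with filterByExpr, normalized by TMM and tested with edgeR 4.0.16 (glmQLFit, glmQLFTest, R 4.3.3), two-sided, with Benjamini-Hochberg adjustment over all genes tested and a threshold of 0.05. Treatment comparisons were fitted within each medium. Comparisons of media and the interaction used all 11 libraries. Intervals are 95% from the fit. Alternatives were DESeq2 1.42.0, library totals, no filter, limma 3.58.1 on log2(CPM+1), voom, 1 fit for all libraries, a block for the replicate number and fits without each library in turn. The functions were tested on simulated counts first.

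The transporters and the other lists were chosen with earlier results of these data known. Named genes were all 10 transporters, from each other list the 4 with the lowest p in proliferation medium and the 2 with the highest mean TPM, and the 3 genes most like Slc3a2, Slc7a5 and Slc7a11, while other names were added after their values were seen. The values of 1 gene that this rule names are not reported here. No 2 libraries of a group agreed within sampling noise.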

Additional observations from a re-analysis of the deposited data

Results flagged for a closer look

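The effect of 4HBP differed between the media for 5 of the 10 transporters by the interaction term of edgeR over all 11 libraries, against 2.01% of all genes tested called larger in proliferation medium and 2.48% called smaller. The log2 fold change in proliferation medium exceeded that in differentiation medium by 4.07 for Slc7a3, 1.29 for Slc7a5, 1.17 for Slc7a11, 1.25 for Slc3a2 and 1.70 for Slc1a5. The call of Slc7a11 was lost with DESeq2 (adjusted p = 0.0502), with limma on log2(CPM+1) (0.14) and in 7 of the 11 fits without a library. Every library with 4HBP was above every EtOH library in proliferation medium for these 5 genes, as for 16.2% of all genes tested. In differentiation medium Slc7a11 was higher with 4HBP, and the other 4 were lower in every library with 4HBP than in either EtOH library, as for 17.4% and 15.5% of all genes tested. In proliferation medium 3 of the 5 astrocyte markers fell with 4HBP, and their part in these differences was not tested.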

How the results depend on the processing

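For the 4HBP effect in proliferation medium, the main test called 7 transporters among 1074 genes. Other fits called 67 genes and 0 of the 10 (limma on log2(CPM+1), 4006 genes at an unadjusted p under 0.05), 578 genes (limma with the study's thresholds), 534 (replicate block), 2668 (all 11 libraries in 1 fit) and 1703 (voom), and leaving out a library gave 3 to 7 transporters and 107 to 1429 genes. In differentiation medium the main test called 2 higher and 1 lower among 395 genes. Limma called 0 genes (3129 at an unadjusted p under 0.05), limma with the study's thresholds 49 and 0 of the 10, 1 fit of all libraries 0 (644 at an unadjusted p under 0.05), voom 63 and 0 of the 10, DESeq2 256, no filter 778 with 2 of the 10 lower, the replicate block 745 with 2 lower, and library totals 2 lower. Leaving out a library gave 0 to 2 higher, 0 to 1 lower and 77 to 288 genes. With the study's thresholds, limma called fewer genes here in each medium than the study reported. For the interaction, no filter called 1616 genes, limma 264, and leaving out a library gave 124 to 1100. Between the media under 4HBP, 1 of the 10 was called higher without the filter and with voom, and 0 to 1 when leaving out a library. Directions reversed only for values that were not called: Slc7a5 between the media in EtOH cultures (0.0622 with library totals, 0.0633 with limma, 0.0246 with the replicate block, −0.0831 to 0.0429 leaving out a library), Slc38a1 in the interaction (−0.0331 to 0.140 leaving out a library) and Slc38a2 in the interaction (−0.0072 with DESeq2, −0.0408 to 0.0779 leaving out a library). The causes were not tested.

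Replicate numbers were not taken to pair the libraries, since the deviations of same-numbered libraries correlated by −0.04 to 0.02. The replicate block added Slc3a2 (log2 fold change −0.13, adjusted p = 0.0124) and Slc38a1 (0.15, adjusted p = 0.024) to the calls in differentiation medium, Slc7a11 (0.60, adjusted p = 0.0118) between the media in EtOH cultures, and Slc7a1 (0.69, adjusted p = 0.0163) to the interaction, and among the other transporters it lost the call of Slc6a11 in proliferation medium. Slc7a3 in differentiation medium rests on 17 to 30 expected counts a library, which limits what can be told of its change there.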
